A study of Mus musculus with 2 samples.

Results

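The proteins that a neutrophil packs into its granules are encoded here by 10 genes, taken by symbol from the 32288 features of a single-cell RNA sequencing (scRNA-Seq) study of mouse long bone periosteum, the fibrous layer on the outside of bone. Of these, 4 encode azurophil granule proteins (Elane, Mpo, Prtn3 and Ctsg) and 6 encode proteins of granules made later or of late cytoplasm (Ltf, Camp, Ngp, Lcn2, Mmp8 and Chil3). All 10 were detected and all 10 passed the filter on low counts among the 13363 genes tested. The study isolated periosteal cells with collagenase from the femurs and tibias of mice given as 4-week-old wild-type (WT) C57BL6. Fluorescence-activated cell sorting (FACS) kept cells negative for CD45, CD31 and Ter119, which is meant to remove blood and endothelial cells. Droplet-based 10x scRNA-Seq followed. Both libraries, replicate 1 and replicate 2, belong to this single group, so the comparisons are between cell classes within the libraries. How many mice went into each library is not given in the sources used here, and p-values measure only the spread between these libraries.

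Neutrophils fill their granules in a fixed order while they mature in the bone marrow. Promyelocytes make the azurophil (primary) granules, which hold the serine proteases neutrophil elastase, proteinase 3 and cathepsin G together with myeloperoxidase. Myelocytes and metamyelocytes then make the specific (secondary) granules with lactoferrin, the cathelicidin precursor and lipocalin 2, band cells make gelatinase granules, and by the time a neutrophil leaves the marrow most of this transcription has ended, which is why granule genes are used to read its stage. Monocyte precursors also make azurophil-type granules, whereas skeletal stromal cells are not known to make them, although lipocalin 2 is also known as a product of osteoblasts.

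The sequence before the transcription start is shown for members whose C/EBP and PU.1 letters differ, because C/EBP family factors and PU.1 are known to drive granule genes. Each line holds the reference bases, from RefSeq on GRCm38.p6, that lie upstream of the annotated gene start within a promoter window of 300 bases (250 before and 50 after the RefSeq start), written 5′ to 3′ on the gene's own strand. They are chr10:79886062-79886246 (plus strand) for Elane, chr14:56102575-56102824 (minus) for Ctsg, chr9:111019042-111019270 (plus) for Ltf, chr9:110419558-110419746 (plus) for Ngp and chr9:7558179-7558428 (plus) for Mmp8. Capitals mark the C/EBP letters TTNNGNAA or their reverse complement TTNCNNAA, and the PU.1 letters GAGGAA or their reverse complement TTCCTC.
Elane: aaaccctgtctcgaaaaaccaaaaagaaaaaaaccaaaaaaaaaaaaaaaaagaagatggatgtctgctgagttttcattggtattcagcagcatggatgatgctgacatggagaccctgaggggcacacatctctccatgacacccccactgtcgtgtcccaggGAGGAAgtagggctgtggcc
Ctsg: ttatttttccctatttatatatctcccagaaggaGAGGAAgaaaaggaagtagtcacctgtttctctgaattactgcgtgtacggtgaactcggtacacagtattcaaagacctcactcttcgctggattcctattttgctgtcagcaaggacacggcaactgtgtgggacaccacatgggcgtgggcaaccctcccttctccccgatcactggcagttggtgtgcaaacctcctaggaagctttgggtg
Ltf: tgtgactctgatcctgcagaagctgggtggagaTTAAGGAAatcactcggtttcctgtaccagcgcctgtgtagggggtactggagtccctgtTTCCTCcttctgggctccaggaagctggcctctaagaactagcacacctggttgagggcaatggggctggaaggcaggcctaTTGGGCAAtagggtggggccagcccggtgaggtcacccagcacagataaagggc
Ngp: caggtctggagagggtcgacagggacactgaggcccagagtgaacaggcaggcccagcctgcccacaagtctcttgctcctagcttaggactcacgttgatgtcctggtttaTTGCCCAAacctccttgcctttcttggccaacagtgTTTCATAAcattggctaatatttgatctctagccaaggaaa
Mmp8: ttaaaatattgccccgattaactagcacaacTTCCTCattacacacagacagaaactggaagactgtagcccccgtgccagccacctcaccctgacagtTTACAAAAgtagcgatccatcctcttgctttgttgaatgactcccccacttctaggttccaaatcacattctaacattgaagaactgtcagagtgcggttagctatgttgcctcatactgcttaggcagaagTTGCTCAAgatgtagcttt
All 10 members matched a RefSeq window. Over the whole windows, the C/EBP letters were found in 0 of 4 azurophil genes and in 5 of 6 later genes, Camp being the exception, beside 40.7% of the 32851 promoter windows of the genome. The PU.1 letters were found in 4 of 4 azurophil and 3 of 6 later genes, beside 28.3% of all windows. The RUNX letters TGTGGT were found in 1 of 4 and 1 of 6 (16.8% of all windows), and the MYB letters AACNG in all members (80.3%). These are matches of letters on either strand in a short window, and they do not show binding. On the GENCODE annotation of GRCm38 all 10 are protein-coding genes, and they are partly clustered. Elane (chr10:79886247-79888215) lies next to Prtn3 (chr10:79874476-79883174), and Camp, Ngp and Ltf lie between bases 109847379 and 111042767 of chromosome 9. Mmp8 lies on the same chromosome but far from them (chr9:7558456-7568485).

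The libraries held 9932 and 3659 barcodes with 100808649 and 33306452 unique molecular identifiers (UMIs), of which 6276 and 2893 barcodes passed the filters of at least 500 genes, at least 500 UMIs and at most 10% mitochondrial UMIs, with medians of 8164 and 6279 UMIs. The kept sets shared 7 barcode sequences. Clusters were drawn without the 10 members and without 27 other granule and transcription factor genes, and were named from markers, with "-like" for each name. The sort was meant to leave no blood cells. Named classes with blood cell markers nevertheless held 5380 of 6276 kept cells (85.7%) in library 1 and 1504 of 2893 (52.0%) in library 2. These shares leave out 484 and 352 unnamed cells, which entered no test. Of those, 271 and 216 lay in a cluster with 7 of 9 B cell markers. Another 114 and 39 lay in a cluster with progenitor and T/NK cell markers. The study filtered out hematopoietic lineage cells before its own clustering. Levels are given as the gene's UMIs scaled to a common total (CPM) in the sum of all cells of a class within a library, with library 1 first, so the pair of values is the replicate spread. Intervals, where given, are 95% and cover counting error only. Fewer expressing cells and less RNA per cell cannot be told apart in such a sum, so values per cell are added where they matter. Levels are compared within a gene and not between genes.

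The azurophil genes were high in the promyelocyte-like class, lower in the monocyte-like class and lower again in immature and mature neutrophil-like cells, where they overlapped the counting interval of B cell-like cells in both libraries for the immature and in library 2 for the mature class. The promyelocyte-like class (285 and 33 cells, led by Ms4a3, Nkg7 and Clec12a) carried 8 of 8 promyelocyte markers and also 8 of 9 immature neutrophil markers, and its 4 azurophil genes summed to 18889 and 18559 CPM. Elane, neutrophil elastase, stood at 6286 and 6071 CPM there and at 6.46 and 0 CPM in immature neutrophil-like cells (195 and 29 cells), where the 0 allows up to 10.6 CPM. Mpo, myeloperoxidase, stood at 3323 and 3179 CPM against 6.96 and 0 CPM. For both genes the libraries differed from each other far less than the classes did.

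Prtn3, proteinase 3, showed the same division, with 6515 and 5650 CPM in promyelocyte-like and 9.95 and 5.77 CPM in immature neutrophil-like cells. Ctsg, cathepsin G, had 2765 and 3658 CPM against 3.48 and 0 CPM. With edgeR's quasi-likelihood test and Benjamini-Hochberg adjustment over all genes, the promyelocyte-like level was higher for 4 of 4 azurophil genes and for 0 of 6 later genes, beside 11.9% of all genes higher, 3.85% lower and 15.8% called in either direction. The log2 fold changes were 9.96 (SE 1.46, adjusted p = 0.000425) for Elane, 8.94 (SE 1.36, adjusted p = 0.000535) for Mpo, 9.09 (SE 1.26, adjusted p = 0.000364) for Prtn3 and 9.85 (SE 1.11, adjusted p = 0.000113) for Ctsg, from edgeR. The median over the 4 genes was 9.47, where the median of all genes was 0.29. When the granule genes were kept among the genes that drew the clusters, the differences of Elane, Mpo and Prtn3 fell to 1.55, 2.43 and 1.65 and were no longer called. Log2 differences from library 2 alone, with no test, were 12.6 for Elane, 11.6 for Mpo and 11.8 for Ctsg, but they depend on the count added to the 0 UMIs of that library and are no bound.

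None of the 6 later genes was called between these classes by edgeR, although Mmp8 was low in promyelocyte-like cells, where it had a UMI in 10.9% and 6.06% of cells. In a second grouping described below, 218 barcodes of the promyelocyte-like class fell in a group with 3 of 9 immature neutrophil markers. Another 80 fell in a promyelocyte group. The later-gene levels of the class mix both. Camp, the cathelicidin precursor, stood at 36812 and 43376 CPM in promyelocyte-like and at 53228 and 68729 CPM in immature neutrophil-like cells. Ngp, neutrophilic granule protein, stood at 21136 and 36823 CPM against 43608 and 64959 CPM. Chil3, a chitinase-like protein, was nearly level at 5746 and 4612 CPM against 6001 and 4307 CPM, with the reservation that reads of Chil3 and its near-identical neighbor Chil4 may be split or shared in counting. The gene closest to a call was Mmp8, neutrophil collagenase, at 18.0 and 38.7 CPM in promyelocyte-like and 470 and 285 CPM in immature neutrophil-like cells (log2 fold change -4.13, SE 1.43, adjusted p = 0.0645 by edgeR). With the library as a replicate block, edgeR gave -3.87 for Mmp8 with an adjusted p of 0.0128, and called 3441 genes in place of 2106. Mmp8 was also called in 8 other settings, with log2 fold changes from -4.02 to -5.86. The adjusted p of the other later genes lay between 0.47 and 0.949, and the median over the 6 was -1.56.

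Single cells showed that the promyelocyte-like class held cells of both kinds. Among its 285 and 33 cells with at least 20 member UMIs, 157 and 20 had under 1% of those UMIs in azurophil genes, whereas 50 and 9 had 90% or more. The share with at least 50% was 24.2% (95% exact binomial interval 19.4 to 29.6) in library 1 and 27.3% (13.3 to 45.5) in library 2. Elane had a median of 3 and 4 UMIs per cell in this class with a highest value of 1571 and 1229, so most of its UMIs came from a minority of the cells. In the immature neutrophil-like class, 0 of 195 and 0 of 29 cells reached 50%, which allows shares of up to 1.87% and 11.9%.

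To see the members within that class, the myeloid clusters were clustered a second time, again without the granule genes, and the groups are described with no test because this step was chosen after the first result was seen. The neutrophil groups are numbered N1 to N6, where N1 had the highest promyelocyte markers and N2 to N6 are ordered by the share of mature markers among the neutrophil markers (12.7%, 16.0%, 57.9%, 83.8% and 89.1%), which is an order of markers and not of time. N1 (111 and 26 cells) was led by Acp5, Calr and Gstm1, N2 (201 and 24) by Fbxo5 and Orm1 with cell cycle genes, N3 (173 and 25) by AA467197 and Ly6g, N4 (172 and 20) by Krt83, N5 (181 and 21) by Retnlg and N6 (124 and 24) by Hcar2 and Cxcl2. Of the N1 barcodes, 80 had been in the promyelocyte-like and 55 in the monocyte-like class. The latter were 38 of the 111 N1 cells of library 1 and 17 of the 26 of library 2. N2 came almost wholly (218 barcodes) from the promyelocyte-like class. By its markers N2 was named immature neutrophil-like, on 3 of 9 such markers, the fewest that the naming rule allows, with 0 among its leading genes. Immature neutrophil markers summed to 7631 CPM there and promyelocyte markers to 1368 CPM. Wfdc21 (3330 and 3621 CPM) and Anxa1 (2662 and 3531 CPM) made up most of the immature sum. The monocyte groups described here were M1 (87 and 13 cells, led by Crip1, Itgb7 and F13a1) and M2 (76 and 22, led by Fn1, Ms4a4c and Vcan). A group P (79 and 18), led by Mcpt8, Ctla2a and Dntt with 7 of 7 progenitor and 4 of 8 basophil, mast cell and eosinophil markers, was left unnamed. By the naming rule N4 was unnamed too, with 8 of 9 immature and 4 mature neutrophil markers. It was placed among the neutrophil groups by its best list. The remaining groups held 115 monocyte-like barcodes and are not described. Among them were a further group with monocyte markers (4 of 10, 47 and 10 cells, led by Gngt2, Apoc2 and Cd83) and groups with T/NK cell, B cell, dendritic, erythroid and macrophage markers.

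**Figure D1:**
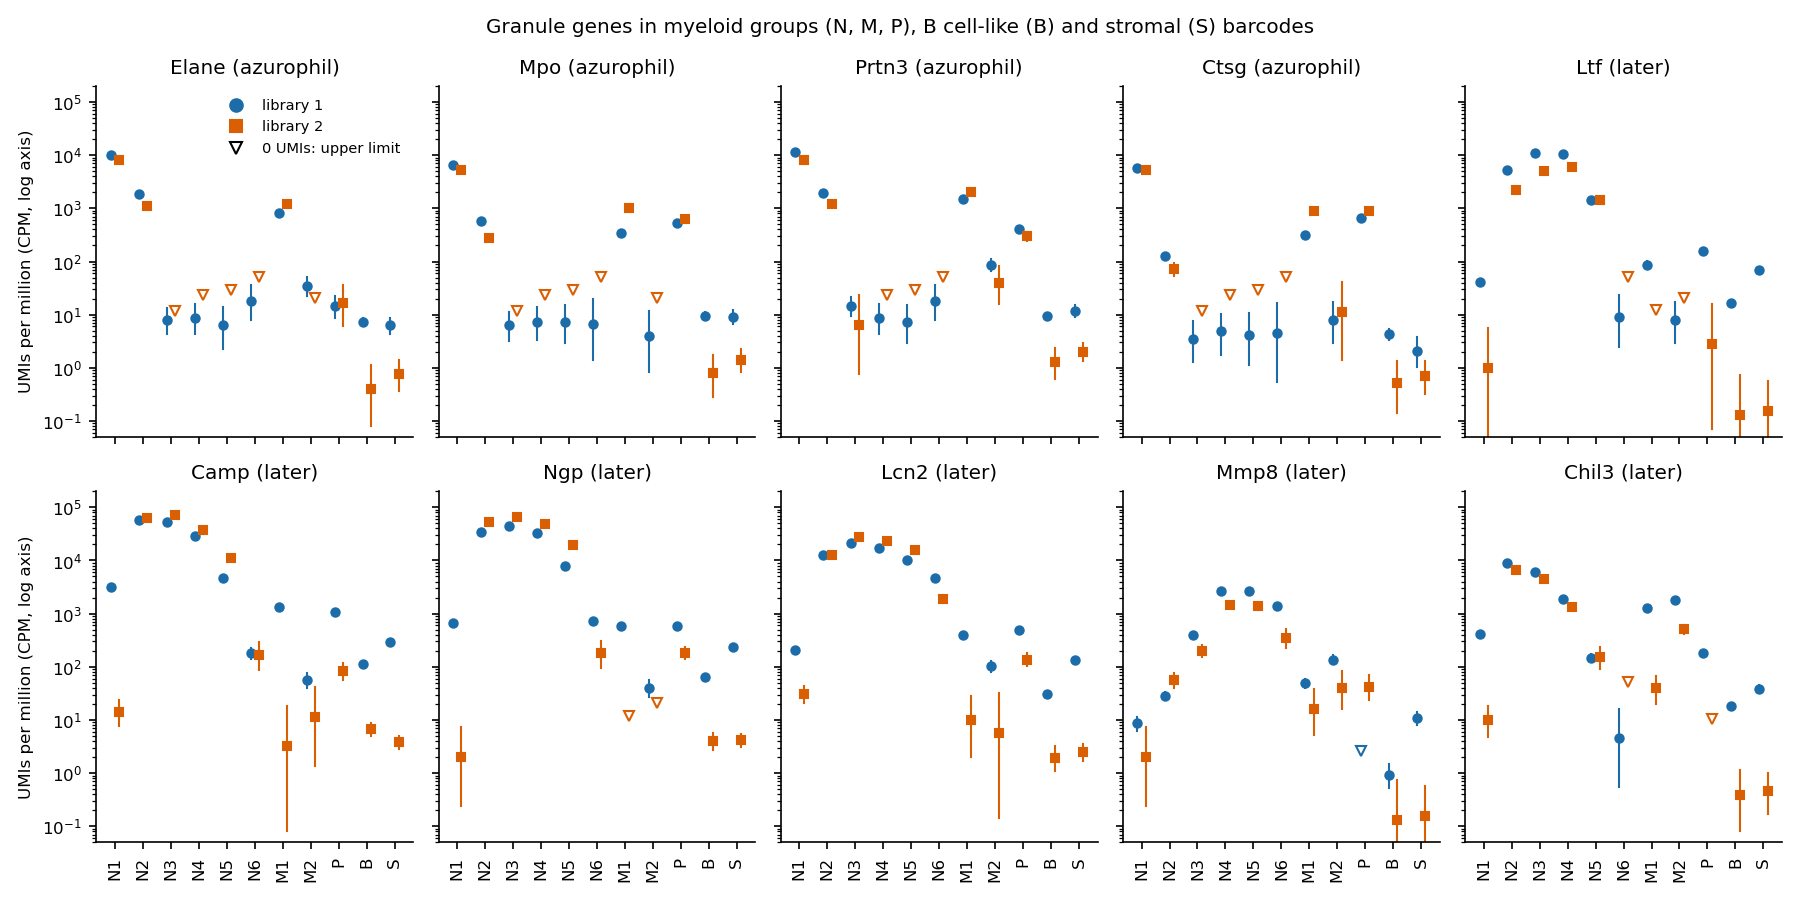
Level of each of the 10 granule genes (CPM, log axis) in groups N1 to N6, M1, M2 and P and in B cell-like (B) and stromal (S) cells, with 1 point per library, 95% counting intervals and open triangles for the upper limit of 0 UMIs. The azurophil genes are highest in N1 and drop to a few CPM from N3 onward, whereas the later genes are highest between N2 and N5.

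All azurophil genes were highest in N1 in both libraries, and each was already far lower in N2. Elane stood at 10145 and 8130 CPM in N1, at 1825 and 1091 CPM in N2 and at 8.03 and 0 CPM in N3. Prtn3 stood at 11273 and 7970 CPM in N1, 1904 and 1201 CPM in N2 and 14.3 and 6.40 CPM in N3. The remainder in N2 was thus 18.0% and 13.4% of the N1 level for Elane and 16.9% and 15.1% for Prtn3, neighbors on chromosome 10. Mpo went from 6578 and 5162 CPM in N1 to 583 and 276 CPM in N2, or 8.86% and 5.35%. Ctsg went from 5653 and 5305 CPM to 126 and 71.2 CPM, or 2.23% and 1.34%, the lowest remainder of the 4 in both libraries. From N3 on, none of the 4 exceeded 0.18% of its N1 level in library 1, and they had between 0 and 2 UMIs in all in library 2.

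**Figure D2:**
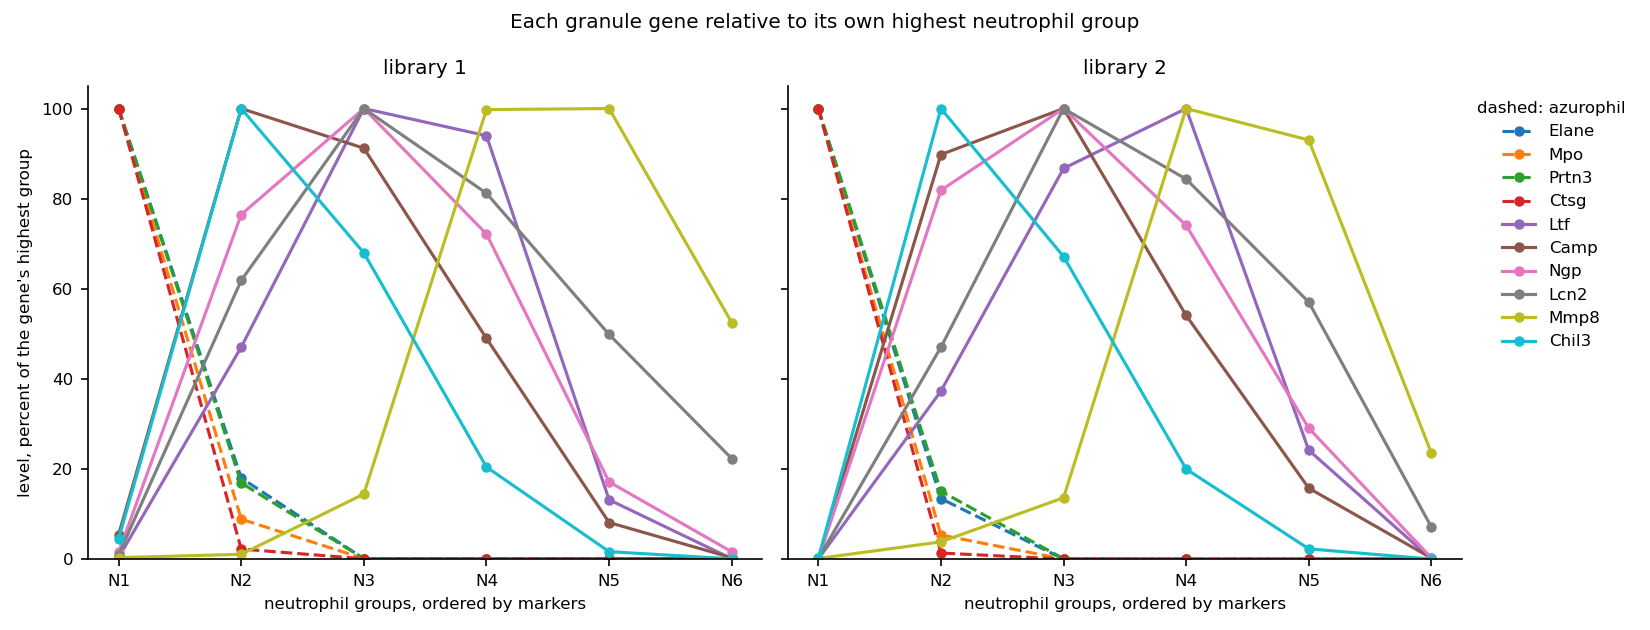
Each gene's level (CPM, not UMIs per cell) in N1 to N6 as a percent of its own highest level among these groups, 1 panel per library. The azurophil genes peak in N1, Chil3 in N2, Camp in N2 or N3, Ngp and Lcn2 in N3, Ltf in N3 or N4 and Mmp8 in N4 or N5.

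By CPM, the 6 later genes did not peak in the same group. The groups differed in depth, with a median of 22668 UMIs per cell in N2, 10177 in N3, 7149 in N4, 5091 in N5 and 3453 in N6. A peak in CPM is thus a peak in the share of a group's UMIs. The UMIs per cell can be highest in an earlier group. Chil3 was highest in N2 at 9047 and 6739 CPM and had fallen to 1848 and 1347 CPM in N4. Camp was nearly as high in N2 (58292 and 63423 CPM) as in N3 (53161 and 70639 CPM), and library 1 put the peak in N2 and library 2 in N3. Ngp peaked in N3 at 44952 and 65793 CPM in both libraries. Lcn2, the siderophore-binding lipocalin 2, also peaked in N3 in both libraries, at 20880 and 27061 CPM. The order of Camp, Ngp and Lcn2 around N2 and N3 is therefore within the difference between the libraries for Camp and alike in both for the other two.

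Ltf, the iron-binding lactoferrin, was at 5165 and 2199 CPM in N2, 10977 and 5115 CPM in N3 and 10315 and 5899 CPM in N4, so N3 and N4 could not be ordered. Mmp8 was the latest, at 28.6 and 56.6 CPM in N2, 388 and 202 CPM in N3, 2679 and 1481 CPM in N4 and 2685 and 1378 CPM in N5. In N2 it had 1.07% and 3.82% of its own highest level, the least of the 6 later genes in both libraries. In N6, the group with the most mature markers, Mmp8 kept 52.5% and 23.5% and Lcn2 22.3% and 7.11% of the highest level, whereas Ngp kept 1.63% and 0.28%, Camp 0.31% and 0.24%, Ltf 0.08% and 0% and Chil3 0.05% and 0%. Lcn2 was still found in 90.3% and 75.0% of N6 cells, and Ltf in 3.23% and 0%. N6 held 24 cells in library 2, of which 3 had at least 20 member UMIs.

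Among the groups N1 to N6, M1, M2 and P, single cells with both granule classes lay mainly in N1, N2 and M1. The libraries differed in N1 and M1, and 38 of 111 and 17 of 26 N1 cells had been in the monocyte-like class. In N1, 85 of 108 cells of library 1 and 21 of 21 cells of library 2 with at least 20 member UMIs had 90% or more of them in azurophil genes. In N2, 148 of 200 and 20 of 24 cells had under 1%. Cells with at least 20 UMIs of each granule class made up 58 of 201 (28.9%) and 7 of 24 (29.2%) in N2 and 0 in N3 to N6. In N1 they made up 41 of 111 (36.9%) in library 1 and 0 of 26 in library 2. Outside the neutrophil groups they made up 11 of 87 (12.6%) and 0 of 13 cells in M1, 1 of 79 and 0 of 18 in P, and 0 in M2. Camp in N1 was accordingly 3175 CPM in library 1, with 1 cell at 2420 UMIs and a median of 3, and 14.1 CPM in library 2. Ngp likewise had 668 and 2.01 CPM in N1, and the background of library 1 was higher too, with Camp at 112 and 6.68 CPM and Ngp at 64.3 and 4.06 CPM in B cell-like cells. Without 3 of the 2402 B cell-like barcodes of library 1, those with at least 20 member UMIs, Camp stood there at 59.6 CPM and Ngp at 40.5 CPM. The background's part in the N1 levels was not tested. None of the N1 or N2 cells and 1 of the 11 M1 cells with both classes was called a doublet by Scrublet, which marked 1.98% of library 1 and 0.0346% of library 2 and so did not work in the latter.

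**Figure D3:**
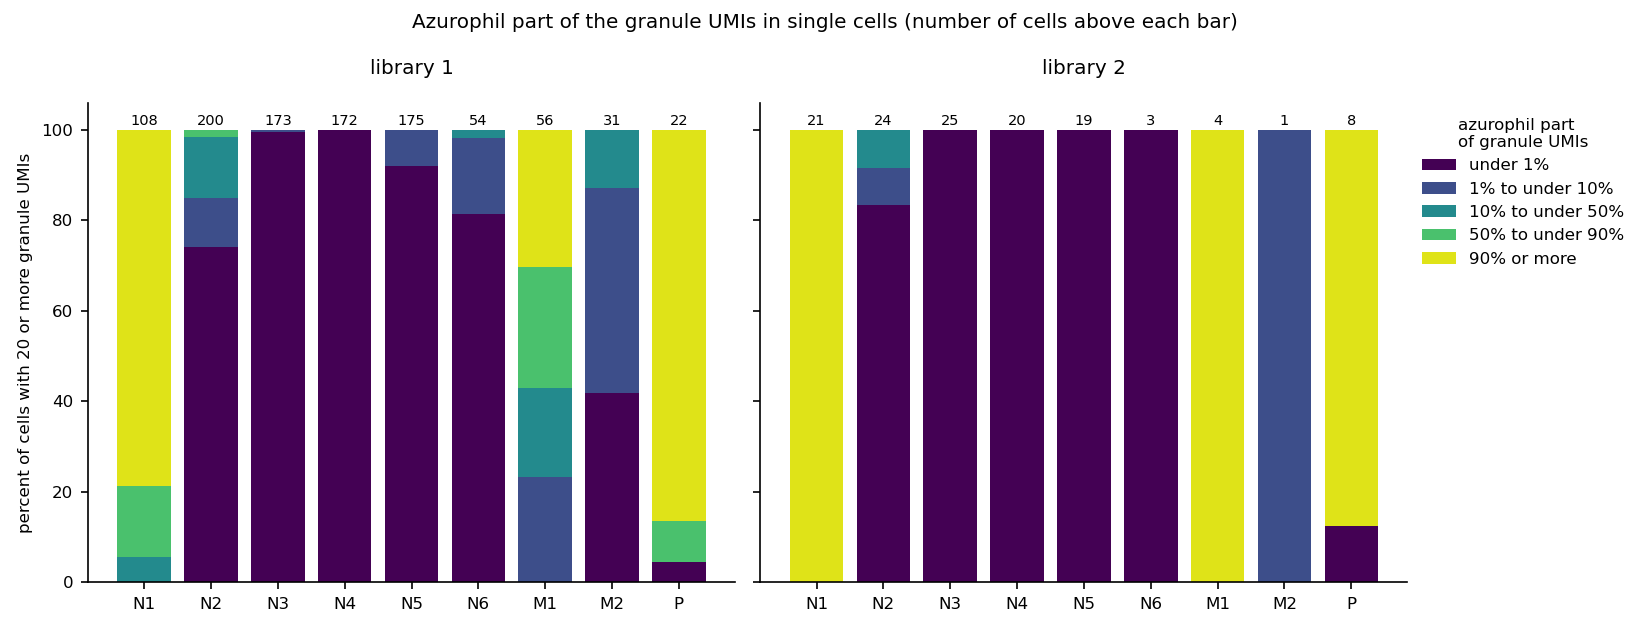
Stacked bars of the percent of cells in 5 ranges of the azurophil part of the granule UMIs, by group and library, over cells with at least 20 member UMIs (number above each bar). In N1, 85 of 108 and 21 of 21 cells are at 90% or more, whereas in N2 148 of 200 and 20 of 24 cells are under 1%.

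Between immature and mature neutrophil-like cells (515 and 63 cells, in clusters led by Retnlg, Slpi and Cxcr2 and by Cxcl2, Hcar2 and Asprv1), the levels moved but no member passed the test. Camp stood at 53228 and 68729 CPM in immature and 14028 and 16685 CPM in mature neutrophil-like cells. Chil3 stood at 6001 and 4307 CPM against 813 and 444 CPM, the largest difference of a later gene (log2 fold change 3.07, SE 1.69, adjusted p = 0.448 by edgeR). Mmp8 had the opposite sign, at 470 and 285 CPM against 2317 and 1208 CPM. The 6 later genes did not overlap between the classes, narrowly for Ltf (5252.5 CPM in library 2 of the immature and 4852.6 CPM in library 1 of the mature class). How many of all genes were apart in this way was not counted, so no result about the members follows from it. The edgeR quasi-likelihood test called 0 of 10 members, beside 1.9% of all genes (0.629% higher and 1.27% lower in the immature class), none had an unadjusted p under 0.05, and DESeq2 also called 0. The 4 azurophil genes were near background in both classes, Elane at 6.46 and 0 CPM against 8.91 and 0 CPM. The test could thus hardly call them, and 0 of 10 is near the share of all genes. The adjusted p lay between 0.448 and 1. The spread behind these tests also came from other classes. There Camp stood at 290 and 3.81 CPM in stromal and at 520 and 8.92 CPM in monocyte-like cells. With the granule genes kept among the clustering genes, 4 members were called, the azurophil genes. All were higher in the immature class (Elane 7.76, Mpo 5.25, Prtn3 6.89 and Ctsg 5.12). That setting also called many more of all genes than the main fit, as counted in the last section. The 4 calls thus do not show a change particular to the members. With the library as a replicate block 852 genes were called in place of 254, none of them a member. In data simulated from this comparison, 54.7% of genes changed by log2 4 and 18% of those changed by log2 2 were recovered. The simulation gave randomly picked genes the general trend of the spread, not each gene's own. Its rates need not hold for the members, whose SE here ran from 1.08 to 1.77.

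The monocyte-like class was compared next, since monocyte precursors share azurophil proteins. It held 282 and 88 cells in clusters led by Ms4a6c, F13a1 and Itgb7 and by Ctss, Wfdc17 and Apoc2, and its azurophil genes summed to 7770 and 7748 CPM. Most of that sum came from few cells, since the 38 of 282 and 17 of 88 that joined N1 in the second grouping held 85.0% and 84.6% of the azurophil UMIs of the class, and the cells that did not join N1 had 1829 and 2228 CPM. The class values below include both. Elane stood at 1787 and 2124 CPM and Mpo at 1776 and 1725 CPM, both below the promyelocyte-like level in each library. Against promyelocyte-like cells the azurophil log2 fold changes were 1.41 to 2.18 with adjusted p from 0.182 to 0.507 by edgeR, so no azurophil gene was called. Of the later genes, Camp (log2 fold change 7.77, SE 2.07, adjusted p = 0.0394) and Ngp (8.61, SE 1.92, adjusted p = 0.0163) were higher in promyelocyte-like cells by edgeR, 2 of 10 members beside 2.67% of all genes higher, 3.34% lower and 6.01% called in either direction. Camp was not called at a cluster resolution of 0.4 (7.54, adjusted p = 0.0585 by edgeR), and neither Camp (2.67) nor Ngp (0.068) was called with the granule genes kept among the clustering genes. Without library 1 the Camp difference was 12.1, and without library 2 it was 6.14, both as log2 differences with no test, and the monocyte-like class of library 2 had 13 Camp UMIs. With the library as a replicate block, edgeR called 6 members in place of 2, adding Ctsg (1.85, adjusted p = 0.0353), Ltf (8.01, adjusted p = 0.00364), Lcn2 (7.62, adjusted p = 0.0047) and Chil3 (5.44, adjusted p = 0.00759), and 1688 genes in place of 803.

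Immature neutrophil-like and monocyte-like cells differed in both granule classes and in opposite directions. By edgeR, 4 of 4 azurophil genes were lower in the immature neutrophil-like class, beside 17.5% of all genes lower. Their log2 fold changes ran from -7.41 to -8.04 with adjusted p from 0.000133 to 0.000706. Of the 6 later genes, 5 were higher, beside 9.76% of all genes higher and 27.3% called in either direction. These were Ltf (8.77, adjusted p = 0.0148), Camp (8.72, adjusted p = 0.0083), Ngp (9.85, adjusted p = 0.00274), Lcn2 (8.72, adjusted p = 0.00773) and Mmp8 (4.46, adjusted p = 0.032), all by edgeR. Mmp8 was not called by DESeq2 (4.56, adjusted p = 0.0534). Chil3 was not called (4.58, adjusted p = 0.0746), and was called with the library as a replicate block (5.67, adjusted p = 0.00199 by edgeR). Library 2 alone gave a log2 difference, with no test, of 12.8 for Camp. For Elane (-11.1), Mpo (-10.8) and Ctsg (-10.4) the size in library 2 is set by the count added to the 0 UMIs of immature neutrophil-like cells and is no bound. The direction of the azurophil genes depended on how the clusters were drawn, which also set the cells that each class name covered. With the granule genes kept among the clustering genes, Elane, Mpo, Prtn3 and Ctsg were higher in the immature neutrophil-like class (7.78, 8.11, 5.55 and 4.57) and were called in that direction.

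**Figure D4:**
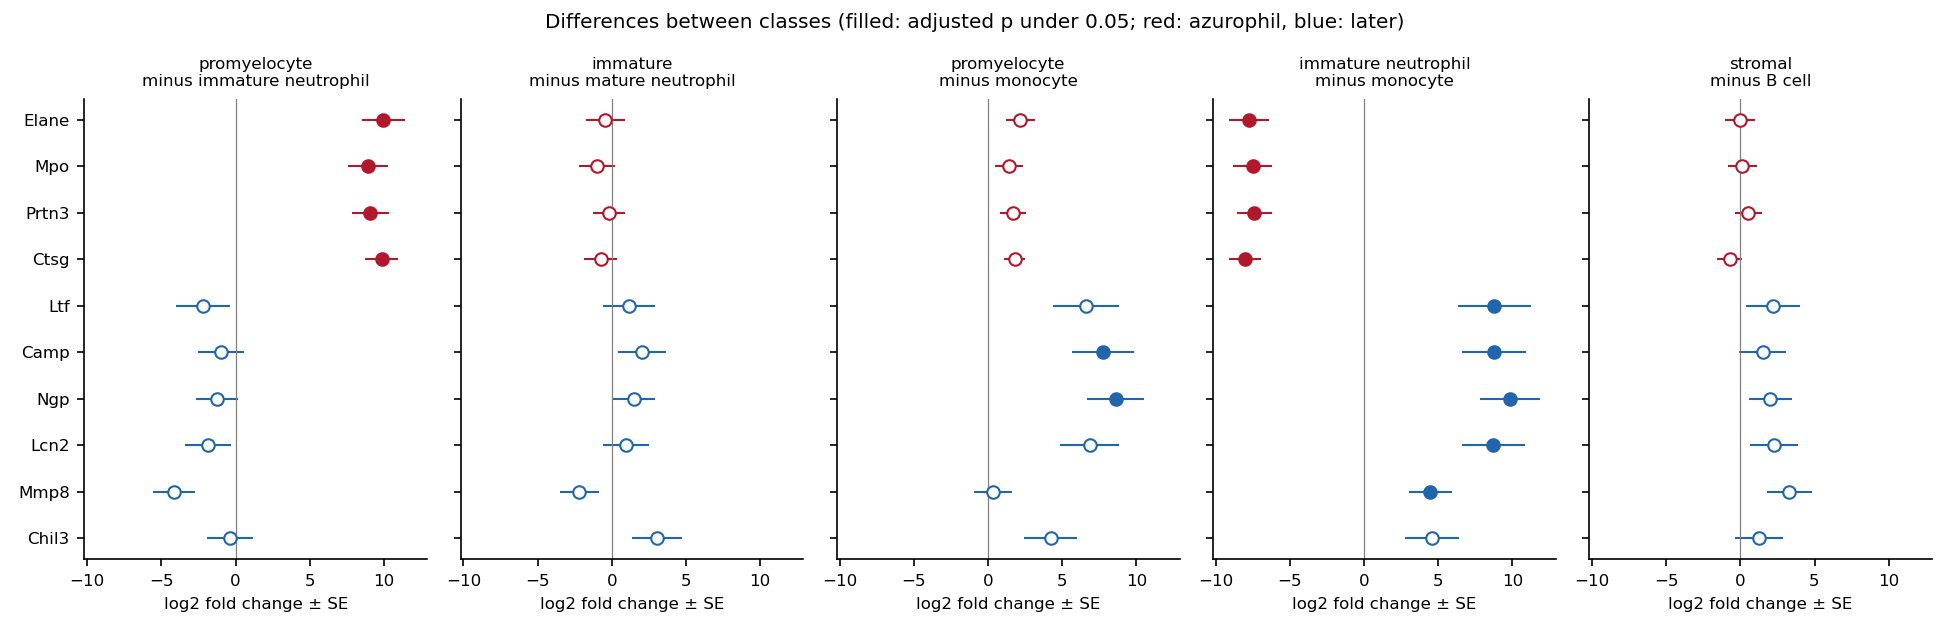
Log2 fold change of the 10 members between cell classes from the edgeR fit, with SE bars, 1 panel per comparison. Azurophil genes separate promyelocyte-like and monocyte-like from immature neutrophil-like cells. Between immature and mature neutrophil-like and between stromal and B cell-like cells 0 of 10 members are called, which does not show that their levels are alike.

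The second grouping divided the monocyte-like signal. The azurophil UMIs were uneven among monocyte-like cells, with medians of 0 UMIs of Elane and highest values of 828 and 643, and of the cells with at least 20 member UMIs 68 of 127 and 17 of 19 had at least 50% in azurophil genes. In M1, Prtn3 stood at 1513 and 2034 CPM and had a UMI in 88.5% and 76.9% of cells, or 43.6% and 35.1% after thinning to 1000 UMIs. Elane had a UMI in 55.2% and 38.5% of M1 cells, or 16.8% and 14.3% after thinning. In M2 Prtn3 was down to 86.7 and 39.8 CPM and Elane to 34.7 and 0 CPM. M1 and M2 thus held less Elane and less Prtn3 than N1, and Prtn3 was still found in 38.2% and 31.8% of M2 cells. In B cell-like cells, with a median depth of 3886 and 4314 UMIs, Prtn3 had a UMI in 5.99% and 0.803% of cells.

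Some later genes were present in monocyte groups, above all Chil3. Chil3 stood at 1818 and 506 CPM in M2 and had a UMI in 80.3% of cells of library 1 and in 11 of 22 cells of library 2. In M1 it stood at 1255 and 39.1 CPM, so the libraries did not agree on M1. Mmp8 was found in 55.3% and 27.3% of M2 cells at 136 and 39.8 CPM. Camp in M1 was 1329 CPM in library 1, of which 1392 of 2594 UMIs came from 1 barcode, and 3.26 CPM in library 2. Monocyte markers summed to 3969 CPM in M1, 6353 CPM in M2, 553 CPM in N1 and 71.3 CPM in N2.

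The unnamed group P held azurophil genes in a different proportion. Mpo stood there at 536 and 623 CPM and Ctsg at 661 and 880 CPM, whereas Elane was at 14.3 and 16.8 CPM. Prtn3 lay between, at 402 and 299 CPM. Of the cells with at least 3 UMIs of both Mpo and Ctsg, 18 of 20 and 5 of 6 had fewer than 3 UMIs of Elane. In N1 this held for 3 of 108 and 0 of 21 cells. Later genes in P came mostly from 1 barcode of library 1, with 1433 of 1506 Camp UMIs, and Mmp8 had 0 UMIs in library 1 and 15 in library 2.

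Other genes of the same granules, from lists of 27 genes, were read beside the members. Between promyelocyte-like and immature neutrophil-like cells, 2 of 6 azurophil partners were higher by edgeR, Prss57 (3.73), a serine protease of azurophil granules, and Srgn (2.76), the proteoglycan serglycin that binds granule proteases, with a list median of 1.55, beside 11.9% of all genes higher and 3.85% lower. Of 8 specific granule and lysozyme genes, 1 was lower (Olfm4, olfactomedin 4, -3.24) and 7 were not called, with a median of -1.41. Of 6 gelatinase granule and secretory vesicle genes, 4 were lower, namely Mmp9 (gelatinase B, -4.52), Fpr1 (a formyl peptide receptor, -4.46), Adam8 (-3.84) and Mmp25 (-2.78), with a median of -3.31. Mmp9 stood at 59.0 and 119 CPM in N1, 64.9 and 59.5 CPM in N2, 813 and 583 CPM in N3 and 2507 and 1813 CPM in N4, so it was highest in N4 in both libraries, where Mmp8 was also at or near its highest. Of 7 transcription factors, only Cebpd was called (-0.92), and for all lists the median of all genes was 0.29.

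Of these 27 genes, 8 were called between promyelocyte-like and immature neutrophil-like cells, 3 between immature and mature, 11 between promyelocyte-like and monocyte-like and 17 between immature neutrophil-like and monocyte-like cells. From immature to mature neutrophil-like cells, 2 azurophil partners were called in opposite directions (Serpinb1a, an inhibitor of granule proteases, 1.97, and Srgn, -3.78), Fcnb (ficolin B) was higher in the immature class (4.78), and 0 gelatinase granule genes and 0 transcription factors were called by edgeR, beside 0.629% of all genes higher and 1.27% lower. Against monocyte-like cells, promyelocyte-like cells were higher for 3 of 6 azurophil partners and lower for 1, and higher for 3 of 8 specific granule, 1 of 6 gelatinase granule and 3 of 7 transcription factor genes, beside 2.67% of all genes higher and 3.34% lower. Immature neutrophil-like cells were higher than monocyte-like cells for 2 and lower for 3 azurophil partners, and higher for 5 of 8 specific granule, 5 of 6 gelatinase granule and 2 of 7 transcription factor genes, beside 9.76% of all genes higher and 17.5% lower. Cebpe, the C/EBP factor that specific granules require, was higher than in monocyte-like cells in both neutrophil classes (5.30, adjusted p = 0.0161, and 5.80, adjusted p = 0.00306, by edgeR). It stood at 236 and 119 CPM in N1, 749 and 749 CPM in N2, 678 and 688 CPM in N3 and 250 and 140 CPM in N4. Gfi1, a repressor needed for neutrophil differentiation, was highest among the neutrophil groups in N1 at 57.8 and 35.2 CPM and fell to 8.61 and 3.20 CPM in N3.

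Over the 16 sums of 8 classes and 2 libraries, the members of each class of granule were set beside the sum of their class, of which each is itself a part, so a high correlation with it is partly built in. The azurophil genes had Pearson r of 0.98 to 1.00 with the azurophil sum on a log2(CPM + 10) scale. The later genes ranged from 0.77 (Mmp8) to 0.99 (Camp) with the later sum, and Mmp8 had -0.18 with the azurophil sum. Of 15998 other genes, Cgas (0.94), B4galnt1 (0.94), Nkg7 (0.94), Cst7 (0.92) and Kcnk12 (0.91) were most like the azurophil sum, and S100a8 (0.99), S100a9 (0.98), Pglyrp1 (0.97), Wfdc21 (0.97) and Trem3 (0.94) were most like the later sum. Nkg7, Cst7, Wfdc21 and Trem3 were among the markers used to name the classes. These values describe 16 points that share libraries and depth.

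In stromal cells the granule genes were set beside their level in B cell-like cells, which are not known to make granule proteins. B cell-like cells serve here as the background level, and whether free RNA is its source was not tested. The stromal class (334 and 973 cells: Lepr stromal-like, chondrocyte-like, fibroblast-like and osteoblast-like) had azurophil genes at 29.3 (95% interval 24.8 to 34.3) and 4.90 (3.76 to 6.27) CPM. The 2402 and 1121 B cell-like cells had 30.4 (28.0 to 33.0) and 3.01 (1.91 to 4.52) CPM. The intervals overlapped in both libraries, which does not show equal levels, whereas library 1 exceeded library 2 in both classes. The later genes summed to 780 and 11.2 CPM in stromal and 243 and 13.4 CPM in B cell-like cells, so only in library 1 was the stromal sum the higher. Without barcodes that held at least 20 member UMIs the sums of library 1 were 134 and 145 CPM. The B cell-like background was not uniform, since its later sum then ran from 108 to 214 CPM among the B cell-like clusters of library 1.

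**Figure D5:**
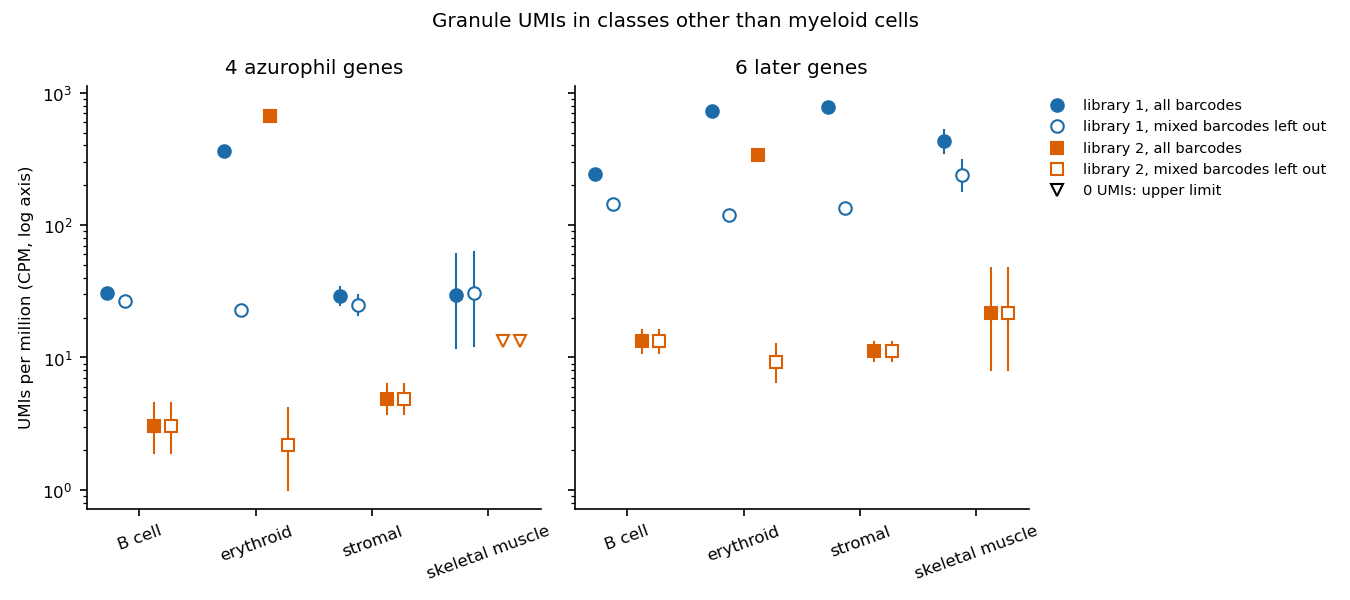
Summed level of the 4 azurophil and of the 6 later genes (CPM, log axis) in B cell-like, erythroid-like, stromal and skeletal muscle-like cells of each library, with all barcodes (filled) and without those that held at least 20 member UMIs (open), with 95% counting intervals. Without those barcodes the later sum of stromal cells in library 1 lies close to the B cell-like value. They were picked by their member UMIs, which lowers the sum by construction.

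The stromal excess of library 1 rested on 7 of 334 barcodes, each with at least 20 member UMIs, which held 80.9% of the member UMIs of the class. Of these, 6 also carried between 217 and 1710 UMIs of S100a8, a calcium-binding protein of neutrophils, and 2 were Scrublet doublets. Library 2 had 0 of 973 such barcodes. Without them Camp stood at 57.1 CPM (50.7 to 64.0) in stromal cells of library 1 and at 59.6 CPM (56.2 to 63.2) in B cell-like cells, from which 3 of 2402 such barcodes had been left out. Ngp then stood at 34.6 against 40.5 CPM, Lcn2 at 24.2 against 24.9 CPM and Chil3 at 10.2 against 10.2 CPM. In library 2 Camp stood at 3.81 against 6.68 CPM and Ngp at 4.12 against 4.06 CPM. Leaving out these barcodes was chosen after the data were seen. They were picked by their member UMIs, so the lower levels in library 1 are partly built in. A stromal cell that made much granule RNA would be left out too.

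The edgeR quasi-likelihood test called 0 of 10 members between stromal and B cell-like cells, beside 46.9% of all genes (29.7% higher and 17.2% lower in stromal cells), and DESeq2 also called 0. The adjusted p ran from 0.0881 to 0.975, and 1 member, Mmp8, had an unadjusted p under 0.05 (0.0462, log2 fold change 3.31, SE 1.51, by edgeR). Mmp8 was called with the library as a replicate block (3.05, adjusted p = 0.0405 by edgeR), and without the mixed barcodes its difference was -1.07. In library 2 Mmp8 had 2 UMIs in stromal and 1 UMI in B cell-like cells, too few to compare. In library 2 alone the log2 difference for Camp was -0.68, with no test. Camp differed by 0.07 without the mixed barcodes (adjusted p = 0.978 by edgeR). The same stromal cells were higher than B cell-like cells for Mmp9 (239.6 and 142.7 CPM against 2.83 and 0.393 CPM, log2 fold change 7.01, adjusted p = 0.000209 by edgeR), a matrix protease also made by bone cells. Of the other lists, 1 of 6 azurophil partners was higher and 2 lower, and 1 of 8 specific granule genes higher and 1 lower. Of the gelatinase granule genes 2 of 6 were higher, and of the transcription factors 2 of 7 were higher and 3 lower.

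The share of stromal cells with a later-gene UMI was high in library 1, and the stromal cells were sequenced deeper than the B cell-like cells. It was 76.0% and 12.8% in stromal cells (median depth 10739 and 9716 UMIs) and 59.9% and 8.47% in B cell-like cells (3886 and 4314 UMIs). At 1000 UMIs per cell the expected shares were 15.8% and 1.48% in stromal and 16.7% and 1.95% in B cell-like cells. In library 1 the mixed barcodes aside, the later sum was 174 CPM (147 to 204) in Lepr stromal-like, 136 (118 to 157) in chondrocyte-like, 168 (125 to 221) in fibroblast-like and 114 in osteoblast-like cells, and in library 2 it was 9.22 to 14.9 CPM. The azurophil sum ran from 13.2 to 34.8 CPM and from 3.66 to 6.84 CPM. Lcn2 in osteoblast-like cells stood at 17.7 and 1.19 CPM without the mixed barcodes, not above the 24.9 and 1.97 CPM of B cell-like cells. In library 1 that step would also have removed osteoblast-like cells with high Lcn2, whereas library 2 had none to remove. In Lepr stromal-like cells Lcn2 stood at 36.0 (24.5 to 51.1) and 3.47 (1.39 to 7.15) CPM. The chondrocyte-like clusters had 29.5 and 3.03 CPM and 28.7 and 3.47 CPM, and fibroblast-like cells 23.1 and 2.19 CPM. All these intervals overlapped those of B cell-like cells, which does not show equal levels. Among B cell-like clusters of library 1 Lcn2 ran from 40.1 CPM (median depth 3092 UMIs) to 18.5 CPM (28032 UMIs). The division of the member UMIs among the 10 genes differed between stromal and B cell-like cells by 4.06% of the UMIs in library 1 without the mixed barcodes and 14.5% with them, and by 17.1% in library 2, which had none in either class, from 207 and 125 UMIs. In library 2 azurophil genes made up 30.4% (24.2 to 37.2) of the member UMIs of stromal and 18.4% (interval up to 26.3) of those of B cell-like cells. They made up 9.66% in the neutrophil classes of library 2, and 14.6% with the monocyte-like class added. The reason for these differences was not tested.

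The azurophil level of immature and mature neutrophil-like cells can be set against the same background. It was 26.9 CPM (20.2 to 35.0) and 5.77 CPM (0.698 to 20.8) in immature neutrophil-like cells, whose intervals overlap those of B cell-like cells in both libraries. In mature neutrophil-like cells it was 43.9 CPM (36.7 to 52.0) and 0 CPM (up to 10.9), above the B cell-like interval in library 1 only. The highest single mature neutrophil-like cell of library 1 had 46 azurophil UMIs. Erythroid-like cells (1701 and 170) showed 365 and 672 CPM, of which 41 and 1 barcodes with at least 20 member UMIs held 87.5% and 98.9% of all member UMIs, and 21 of the 41 were Scrublet doublets.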

How the data were processed

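Both libraries hold sorted periosteal cells of mice given as WT. EGFP was among the counted features and among the leading genes of a chondrocyte-like cluster, and its source was not tested. The authors deposited whole UMI counts per feature and barcode, made per the submitters' processing notes with Cell Ranger 6.1.2 on mm10. The annotation is not given in the sources used here. Barcodes were kept at 500 or more genes, 500 or more UMIs and at most 10% mitochondrial UMIs (6276 and 2893 of 9932 and 3659). Seurat 5.3.0 (R 4.3.3) integrated the libraries and clustered them without the members and 27 other granule genes. Classes needed at least 3 of the markers of 19 lists, counting a gene at log2 fold 1 and in 20% of cells. Scrublet (scanpy 1.11.5) doublets were kept and left out as an alternative. Counts were summed per library and class (8 classes that had 10 or more cells per library), filtered with filterByExpr, scaled with TMM and tested with edgeR 4.0.16 (quasi-likelihood, no block, Benjamini-Hochberg over 13363 genes, threshold 0.05). The SE is the size of the log2 fold change over the square root of edgeR's F statistic. DESeq2 1.42.0, RLE size factors, other filters, resolutions and cluster inputs were alternatives, and the count test was tested on simulated data.

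Sums of the same number come from the same library, and their deviations from class means correlated over all 28 pairs of classes (r from 0.061 to 0.465, 25 over 0.1). A fit with the library as a block was an alternative, and its value stands beside a result where it changed the call. Barcodes of other classes with at least 20 member UMIs (mixed barcodes) were left out as an alternative chosen after seeing the data. They are defined by the counts under study, so levels without them are lower by construction. CPM intervals are exact Poisson and shares exact binomial (95%), and thinning is the expected share at 1000 UMIs per cell, with shallower cells left out.

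The members and lists were chosen with earlier results of these data known. Named are all members, the genes of the 4 other lists, the 5 genes most like each sum (at least 20 UMIs), and the leading genes of myeloid clusters. Leading genes of the second grouping were named after their values were seen.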

Additional observations from a re-analysis of the deposited data

Results flagged for a closer look

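The barcodes left out for more than 10% mitochondrial UMIs but with at least 500 genes held granule UMIs above the level of B cell-like cells, in data that no comparison used. In library 1 these 220 barcodes had 90.8 CPM of azurophil genes (95% counting interval 74.0 to 110) and 8660 CPM of later genes (8487 to 8834), where the kept B cell-like cells had 30.4 and 243 CPM (145 CPM of later genes without 3 mixed barcodes). In library 2 the 77 barcodes had 1614 CPM of azurophil genes (1449 to 1792) and 549 CPM of later genes (455 to 657), against 3.01 and 13.4 CPM. A few barcodes carried these sums, since the 12 of 220 and 4 of 77 with at least 20 member UMIs held 96.1% and 97.0% of the member UMIs. Later genes led in library 1 and azurophil genes in library 2.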

How the results depend on the processing

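Of 720 values of single members under the alternatives, 212 belonged to differences that were called, and 191 of those kept their direction and call, 9 lost the call, 8 moved by at least the SE of the main fit without a test and 4 reversed. Of the uncalled ones, 35 were called under an alternative and 22 reversed. The clustering input mattered most, and each input drew and named the classes anew, so a class name can cover different cells. With the granule genes kept among the variable genes, 4 members were called between immature and mature and 4 between promyelocyte-like and monocyte-like cells, and 2068, 1829 and 1959 genes were called in the immature against mature, promyelocyte-like against monocyte-like and immature against monocyte-like comparisons. Reversed under that setting were, for immature against mature cells, Elane (7.76), Mpo (5.25), Prtn3 (6.89) and Ctsg (5.12). For promyelocyte-like against monocyte-like cells they were Ltf (-1.77), Lcn2 (-0.61), Mmp8 (-2.60) and Chil3 (-1.73). For immature neutrophil-like against monocyte-like cells they were Elane (7.78), Mpo (8.11), Prtn3 (5.55) and Ctsg (4.57), and for stromal against B cell-like cells Mpo (-0.058). Without integration, 99 genes were called between immature and mature cells, 5 members between promyelocyte-like and monocyte-like cells, and Elane (0.032), Mpo (0.013), Prtn3 (0.18) and, in the latter comparison, Mmp8 (-0.48) reversed. The library as a replicate block gave 3441, 852 and 1688 called genes for promyelocyte-like against immature, immature against mature and promyelocyte-like against monocyte-like cells, with 6 members called in the last and 1 between stromal and B cell-like cells. DESeq2 called 586 genes between immature and mature cells and turned Elane to 0.29 between stromal and B cell-like cells, as RLE did (0.16) and as the absence of a filter on low counts did for Mpo (-0.26). RLE moved the median of all genes from 0.29 to 0.17 for promyelocyte-like against immature and from 0.19 to 0.37 for stromal against B cell-like cells. A 5% mitochondrial limit turned Mpo (0.20) and Prtn3 (0.22), and leaving out Scrublet doublets turned Prtn3 (0.10), between immature and mature cells. Leaving out mixed barcodes turned Ltf (-0.40), Ngp (-0.021) and Mmp8 (-1.07) between stromal and B cell-like cells and called 4 members between promyelocyte-like and monocyte-like cells. At resolution 0.4 only 1 member was called there, and with no immature class the contrasts that need it could not be fitted. Some counts of members called are given here without the count of all genes called in the same comparison and setting. Those do not show a change particular to the members. A minimum of 200 genes gave mean levels of 40607 CPM of later genes in mature neutrophil-like and 5927 CPM of azurophil genes in monocyte-like cells. The mean stromal to background difference in composition was 37.1% with erythroid-like cells as background and 10.6% without mixed barcodes, in place of 15.8%. With at least 50 member UMIs the mean share of promyelocyte-like cells at 50% azurophil UMIs or more was 23.4% in place of 25.7%. The causes of these changes were not tested. Leaving out a library left no residual degrees of freedom and gave log2 differences with no test. Depth and 2 libraries limit what can be seen in the small classes of library 2, where 0 UMIs still allow about 10.6 CPM in immature neutrophil-like cells.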
